A study of Mus musculus with 12 samples.

Results

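Spleen cells labeled as monocytes were taken from mice 5 days after a cryo-thermal tumor therapy (CTT). They were compared between mice that also received an antibody against Ly6G and mice that did not. In CTT a tumor is frozen and then heated in place. The comparison covers 6 of the 12 RNA-seq libraries of the series, 3 from each group, chosen by their labels, and all genes of the monocyte count table. All 6 libraries came from wild-type mice that had undergone CTT, and the spleen cells had been stained with PE-coupled anti-CCR2 and captured with a PE positive-selection kit. The groups therefore differ, per the labels, in the anti-Ly6G treatment alone; the sources used here give neither its dose and timing nor the tumor, strain, age or sex of the mice. Monocytes from mice without CTT were not analysed here. Replicates are called biological in the labels, which leave out how many mice each came from, so a p-value here reflects only how these 6 libraries vary, which may be technical.

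Ly6G is a surface protein of mouse neutrophils, and antibodies against it are used to deplete neutrophils. CCR2 is the chemokine receptor by which inflammatory Ly6C-high monocytes leave the bone marrow; these cells circulate, enter the spleen and inflamed tissue, and can mature there into macrophages and dendritic cells. The spleen also holds resident red pulp macrophages, which clear aged red cells and recycle their iron, and a reserve of monocytes and neutrophils. Neutrophils and monocytes share a progenitor in the bone marrow, and early cells of both lineages make granule proteins. In these bulk libraries, fewer cells of a type and less RNA per cell cannot be told apart.

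The libraries held 31865982 to 35956571 counted reads, and 13294 of the 16954 genes in the table passed the filter on low counts. With anti-Ly6G, 1354 genes (10.2% of those tested) rose and 681 (5.12%) fell in edgeR's quasi-likelihood test at a Benjamini-Hochberg adjusted p under 0.05, so that 15.3% of genes changed. The change was at least 2-fold for 259 rising genes (1.95%) and 62 falling genes (0.466%), and the median log2 fold change over all tested genes was −0.0044. At an unadjusted p under 0.05 there were 4118. In 2732 tested genes (20.6%) all antibody libraries were above all CTT libraries, and in 2052 (15.4%) all were below. Of the 2035 called genes 2030 had groups without overlap, so the lack of overlap given for genes below adds little to a call. All log2 fold changes are anti-Ly6G over CTT alone, with edgeR's adjusted p, and levels are CPM, that is read counts scaled to library size and by TMM factors, unless stated otherwise. The split was 66.5% rising among the called genes, 50.9% with upper-quartile scaling and 56.5% with DESeq2. The first principal component held 45.4% of the variance and separated the groups. The second held 17.6% and set CTT replicate 1 (31.4) apart from CTT replicates 2 and 3 (−20.2 and −6.75). Without CTT replicate 1, 1687 genes rose and 1168 fell. Without CTT replicate 2 or 3 the counts were 875 and 531, or 706 and 278; without anti-Ly6G replicate 1, 2 or 3 they were 761 and 177, 870 and 318, or 929 and 281.

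**Figure D1:**
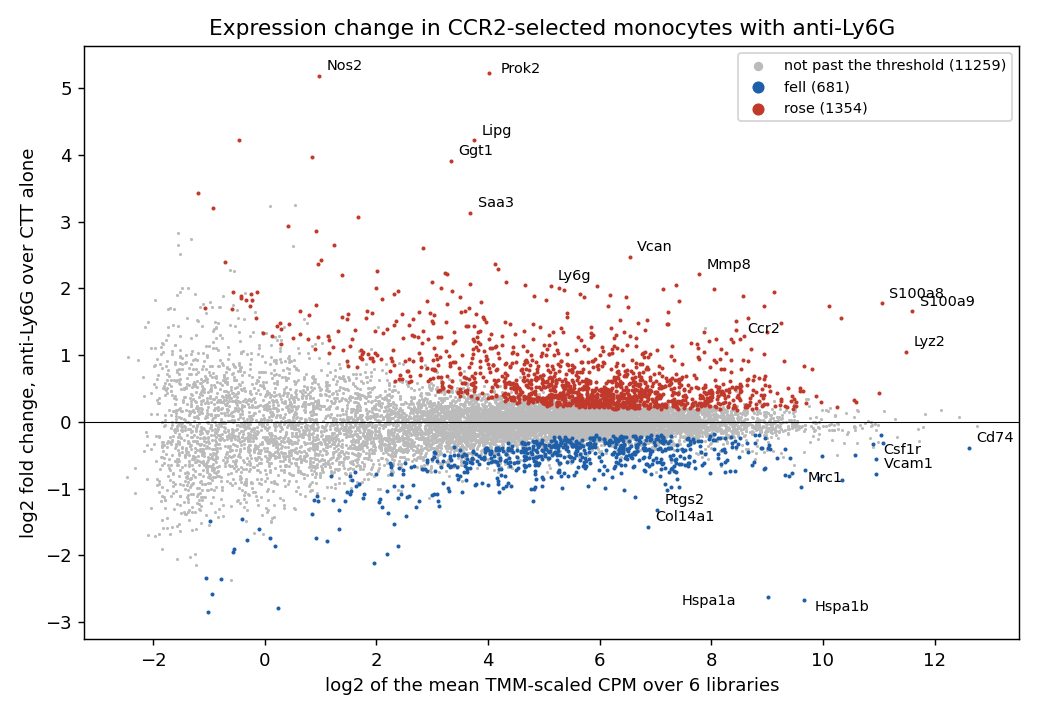
Log2 fold change (vertical axis, anti-Ly6G over CTT alone) against the log2 of the mean TMM-scaled CPM over 6 libraries (horizontal axis) for the 13294 tested genes; red points are the 1354 genes that rose, blue points the 681 that fell, and grey points did not pass the threshold. Prok2 and Nos2 lie highest, and Hspa1a and Hspa1b lie far below all other genes of their level.

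The label of monocytes was compared with defining transcripts first. Ccr2, the gene of the protein used for capture, stood at 264, 190.5 and 194 CPM in CTT replicates 1 to 3 and 587, 439 and 512 CPM in anti-Ly6G replicates 1 to 3. Every antibody library was above every CTT library (log2 fold change 1.25, SE 0.14, adjusted p = 0.000968). Ly6c2 encodes Ly6C, whose high level marks inflammatory monocytes, and was read at 247, 176 and 163 CPM in CTT replicates 1 to 3 and 589, 448 and 347 CPM in anti-Ly6G replicates 1 to 3, again without overlap (log2 fold change 1.24, SE 0.20, adjusted p = 0.00498). Its paralog Ly6c1 was measured at 0.718, 1.33 and 0.817 CPM with CTT alone and 2.12, 2.42 and 1.65 CPM with anti-Ly6G (log2 fold change 1.11, adjusted p = 0.0629). Of 11 monocyte and macrophage defining markers, none of them at 0, 6 rose and 3 fell. Their summed level ran from 5484 to 8277 CPM with CTT alone and from 7796 to 8733 CPM with anti-Ly6G, and the groups overlapped through CTT replicate 1. The risers were Ccr2, Ly6c2, Cx3cr1, Lyz2, Itgam and Cd14. The fallers included Csf1r and Adgre1. Calls ended for Csf1r without CTT replicate 3 or anti-Ly6G replicates 1, 2 or 3 (adjusted p 0.0565 to 0.105) and Cd14 without CTT replicate 3 (adjusted p = 0.0522). Of the genes named here and below, Axl, Bhlhe40, Cd14, Cd177, Cebpb, Cebpe, Chil3, F10, Fos, Hmox1, Hspa1l, Hspa8, Hspb1, Ifit1, Isg15, Ltf, Maf, Mki67, Ngp, Oas1g, S100a4 and S100a6 lie outside the naming rule of the methods and were chosen after their values were seen.

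Ly6g itself, the target of the antibody, was read in every library: 16.1, 11.7 and 13.1 CPM in CTT replicates 1 to 3 and 62.7, 57.1 and 48.5 CPM in anti-Ly6G replicates 1 to 3. The antibody libraries were thus 4.12-fold higher (log2 fold change 2.04, SE 0.14, adjusted p = 0.000106). Since the antibody binds the protein and these cells were captured by CCR2, the transcript does not check the treatment label. Transcripts that define neutrophils were present in both groups. Of 12 such markers 11 rose and 0 fell, with a median log2 fold change of 1.70, and their summed level was 4817 to 6646 CPM with CTT alone against 13354 to 18057 CPM with anti-Ly6G. The exception was Csf3r, the receptor of the neutrophil growth factor G-CSF, at 697, 780.0 and 760.0 CPM in CTT replicates 1 to 3 and 753, 1266 and 821 CPM in anti-Ly6G replicates 1 to 3 (log2 fold change 0.34, adjusted p = 0.209). With anti-Ly6G these markers summed to more than the 11 monocyte and macrophage markers (7796 to 8733 CPM). The captured cells are called monocytes here by their label. The libraries also held neutrophil transcripts and, as given below, those of red pulp macrophages and B cells. The share of neutrophils among the captured cells was not measured, and the part of those cells in the results below was not tested.

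The genes with the largest increase were low with CTT alone. Prok2 (chr6:99711299-99726392), which encodes prokineticin 2, a chemokine-like ligand made by neutrophils and monocytes, stood at 0.843, 0.894 and 0.788 CPM in CTT replicates 1 to 3 and 36.9, 23.7 and 34.6 CPM in anti-Ly6G replicates 1 to 3. These are 83 raw counts in all against 3213, and the antibody libraries were 37.5-fold higher (log2 fold change 5.23, SE 0.22, adjusted p = 2.94e-05). Lipg, which encodes endothelial lipase, stood at 1.53, 1.76 and 0.817 CPM with CTT alone and 34.1, 18.3 and 24.2 CPM with anti-Ly6G (log2 fold change 4.22, adjusted p = 0.000163). Ggt1 (chr10:75561076-75586193), which encodes the enzyme that starts extracellular glutathione breakdown, stood at 1.62, 0.956 and 1.20 CPM with CTT alone and 27.1, 11.2 and 18.7 CPM with anti-Ly6G (log2 fold change 3.91, adjusted p = 0.000339). Anti-Ly6G replicate 2 was the lowest of its group for all 3 of these genes. Saa3, an acute phase serum amyloid gene, moved from 3.84, 2.37 and 1.69 CPM to 24.6, 21.5 and 23.1 CPM (log2 fold change 3.13, SE 0.24, adjusted p = 0.000169). Vcan (chr13:89655309-89743027), which encodes the matrix proteoglycan versican and marks classical monocytes, stood at 41.7, 21.2 and 22.5 CPM with CTT alone and 189, 124 and 162 CPM with anti-Ly6G (log2 fold change 2.48, adjusted p = 0.000636), with CTT replicate 1 the highest of its group. Nos2, which encodes inducible nitric oxide synthase, gave 4, 5 and 1 raw counts with CTT alone and 133, 97 and 159 with anti-Ly6G. The ratio of its summed, depth-scaled counts was 37.7 (exact 95% interval 20.3 to 79.2, counting error only).

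The 15 largest rises above 10 CPM included 10 further genes. The adhesion molecule gene Mcam stood at 2.06, 2.10 and 1.90 CPM with CTT alone and 12.96, 12.7 and 11.04 CPM with anti-Ly6G (log2 fold change 2.60, SE 0.15, adjusted p = 8.39e-05). Uridine phosphorylase Upp1 stood at 5.53, 6.32 and 5.11 CPM with CTT alone and 32.4, 30.9 and 24.2 CPM with anti-Ly6G (log2 fold change 2.37, SE 0.14, adjusted p = 8.39e-05). The immune receptor gene Tarm1 stood at 6.65, 5.49 and 6.27 CPM with CTT alone and 36.1, 28.3 and 26.1 CPM with anti-Ly6G (log2 fold change 2.30, SE 0.15, adjusted p = 8.39e-05). Groups without overlap were a condition of the rule that chose the largest rises, so this is no result for these genes. Lin28a, which encodes an RNA-binding protein that blocks let-7 processing, stood at 4.25, 2.31 and 3.33 CPM with CTT alone and 18.0, 16.5 and 11.7 CPM with anti-Ly6G (log2 fold change 2.22, SE 0.24, adjusted p = 0.000725). The remaining 6 were the neutrophil collagenase gene Mmp8 (log2 fold change 2.22), Ceacam10 (2.21), the growth factor gene Nrg1 (2.09), Lbp (2.09), whose product carries lipopolysaccharide to CD14, the granulocyte-monocyte progenitor gene Ms4a3 (2.06) and the p38-delta kinase gene Mapk13 (2.06). One of these calls rested on single libraries, since it ended for Ms4a3 without CTT replicate 3 or anti-Ly6G replicate 1 (adjusted p 0.0725 to 0.0783).

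**Figure D2:**
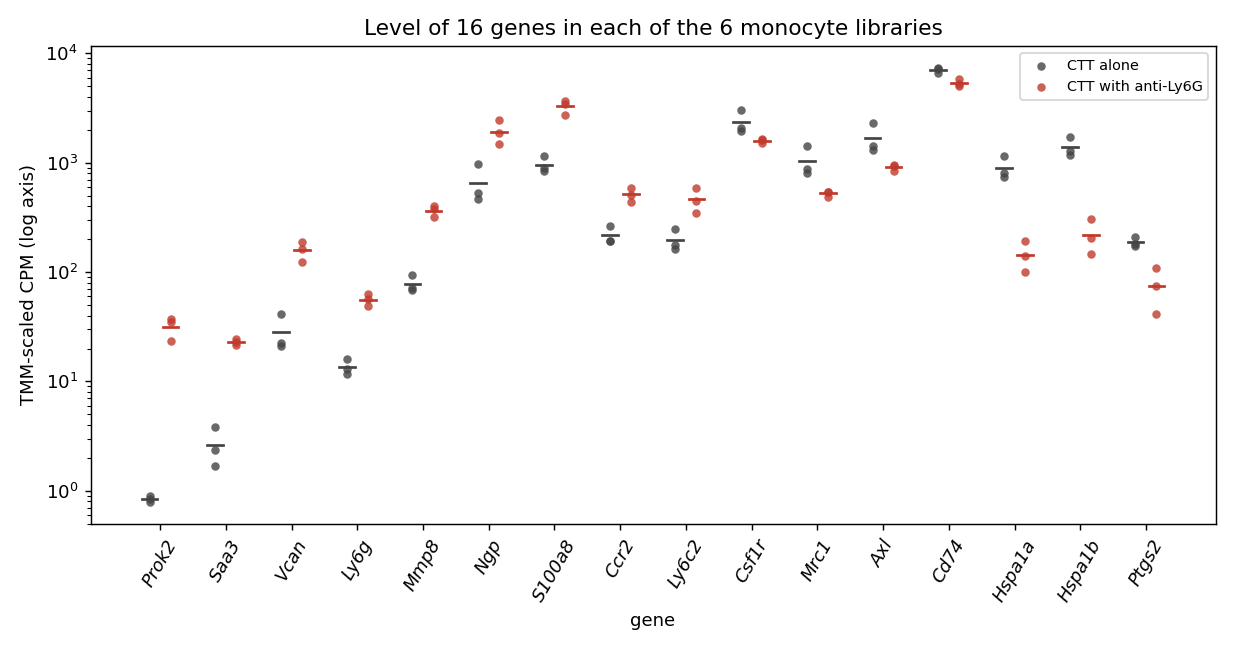
TMM-scaled CPM (vertical axis, log scale) of 16 genes in each of the 6 monocyte libraries; grey points are CTT alone, red points CTT with anti-Ly6G, and bars are group means of 3 libraries. Prok2 to Ly6c2 are higher and Csf1r to Ptgs2 lower in all 3 antibody libraries, and CTT replicate 1 is the high point of Csf1r, Mrc1 and Axl.

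Genes of neutrophil granules rose with anti-Ly6G. Developing neutrophils fill primary granules first, with serine proteases, and then secondary and tertiary granules, with lactoferrin, lipocalin and metalloproteases, while mature cells express receptors and alarmins. Of 19 secondary and tertiary granule genes tested, 17 rose and 0 fell (median log2 fold change 1.55), and of 21 mature neutrophil genes 17 rose and 0 fell (1.27). The summed level of the granule genes was 4930 to 7466 CPM with CTT alone and 11328 to 15042 CPM with anti-Ly6G. That of the mature neutrophil genes was 4392 to 5046 and 10952 to 14215 CPM. In the primary granule list, which shares Hp with the secondary and tertiary list, 7 of 11 rose and 0 fell (1.42). The rising count was 3 without CTT replicate 3 or anti-Ly6G replicate 1.

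Promoter sequences of 3 granule genes are shown because factors of the C/EBP family, which bind TTNNGCAA, drive granule genes in the myeloid lineage. Each is the 150 bases before the start site in RefSeq's GRCm38.p6 annotation, 5′ to 3′ on the gene's strand, with matches to TTNNGCAA on either strand in capitals. Ngp lies at chr9:110419658-110419807, plus strand; Ltf at chr9:111019142-111019291, plus strand; and Mmp8 at chr9:7558279-7558428, plus strand.
Ngp: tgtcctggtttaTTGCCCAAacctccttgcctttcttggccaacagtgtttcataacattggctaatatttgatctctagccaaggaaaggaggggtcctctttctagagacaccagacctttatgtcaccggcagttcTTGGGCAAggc
Ltf: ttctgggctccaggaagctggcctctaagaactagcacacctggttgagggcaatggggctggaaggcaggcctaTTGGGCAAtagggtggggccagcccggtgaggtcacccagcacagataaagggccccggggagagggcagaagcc
Mmp8: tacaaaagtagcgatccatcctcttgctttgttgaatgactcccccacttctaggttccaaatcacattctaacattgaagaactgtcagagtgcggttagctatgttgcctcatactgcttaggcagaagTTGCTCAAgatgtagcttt
The capitals begin 138 and 11 bases before the start of Ngp, 75 before that of Ltf and 19 before that of Mmp8. In windows of 300 bases (250 before and 50 after the start), 7 of 11 neutrophil defining markers with a window held the motif (63.6%), as did 5 of 20 mature neutrophil genes (25.0%) and 4 of 15 secondary and tertiary granule genes (26.7%). In the primary granule list 1 of 8 held it (12.5%). The share was 10.5% over the 10613 tested genes with a window, 11.6% over those that rose and 9.6% over those that fell. Some lists without a tie to granules had shares above those of the mature neutrophil and granule lists. Among these were 3 of 8 plasma cell markers (37.5%), 7 of 22 pattern recognition genes (31.8%) and 8 of 26 Fc and inhibitory receptor genes (30.8%).

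The transcripts behind these promoters were abundant. Ngp, which encodes neutrophilic granule protein, stood at 969, 526 and 461 CPM in CTT replicates 1 to 3 and 2445, 1858 and 1473 CPM in anti-Ly6G replicates 1 to 3 (log2 fold change 1.56, SE 0.28, adjusted p = 0.00729). Ltf, which encodes lactoferrin, stood at 769.9, 403 and 357 CPM with CTT alone and 2198, 1609 and 1316 CPM with anti-Ly6G (log2 fold change 1.74, SE 0.29, adjusted p = 0.00539). Both genes had their highest CTT value in replicate 1, yet no CTT library reached an antibody library. For Mmp8 the values were 94.4, 72.2 and 68.3 CPM with CTT alone and 400.4, 374 and 316 CPM with anti-Ly6G (log2 fold change 2.22, SE 0.14, adjusted p = 8.39e-05). The Mmp8 groups were farther apart than their spread as well. Retnlg, a resistin-like gene of mature neutrophils, rose from 161 ± 4.92 to 596 ± 70.9 CPM (SD, n = 3; adjusted p = 3.78e-05). The gelatinase gene Mmp9 rose from 322 ± 8.93 to 901 ± 116 CPM (adjusted p = 8.39e-05). Cxcr2, the receptor that guides neutrophils to CXC chemokines, stood at 138, 161 and 157 CPM with CTT alone and 289, 378 and 275 CPM with anti-Ly6G (log2 fold change 1.05, SE 0.12, adjusted p = 0.000968). All 3 antibody libraries exceeded all CTT libraries for these 3 genes. Padi4, whose product citrullinates histones, reached a log2 fold change of 1.34, the leukolysin gene Mmp25 1.73, Ifitm6 2.05 and haptoglobin (Hp) 1.55. In the primary granule list, Serpinb1a rose by 0.67, Nkg7 by 0.95 and the cathepsin G gene Ctsg by 2.00 on the log2 scale. Not all members of this list encode proteins of that granule. The CTT values of Ctsg were 28.1, 7.83 and 10.4 CPM, replicate 1 being the highest, and the call ended for Ctsg without CTT replicate 3 or anti-Ly6G replicate 1 (adjusted p 0.0668 to 0.0752).

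Alarmins and stefins sit in gene clusters whose members rose side by side. S100a8 and S100a9, which encode the subunits of calprotectin, were among the most abundant transcripts. S100a8 (chr3:90669071-90670034) stood at 1147, 834 and 892 CPM with CTT alone and 3679, 3418 and 2760.0 CPM with anti-Ly6G. S100a9 stood at 1756, 1392 and 1350.0 CPM with CTT alone and 5102, 5054 and 3997 CPM with anti-Ly6G, so that neither gene's groups overlapped. Their log2 fold changes were 1.78 (SE 0.14) and 1.65 (SE 0.13), and their neighbors S100a4 (0.73) and S100a6 (1.35) rose as well (S100a4 at chr3:90603770-90606045 and S100a9 at chr3:90692630-90695721). A run here is a set of called genes with the same direction and no other tested gene between them, and 13 runs of at least 4 genes were found, all of rising genes. The longest held 6 stefin-type genes at chr16:36156811-36455392: Stfa2l1, Cstdc4, Stfa1, Cstdc5, Stfa2 and Stfa3, inhibitors of cysteine proteases. Stfa2l1 stood at 9.71, 12.1 and 11.5 CPM with CTT alone and 24.7, 34.2 and 22.2 CPM with anti-Ly6G. The others were scarce: Stfa3 gave 2, 0 and 5 raw counts with CTT alone and 64, 34 and 42 with anti-Ly6G, and Cstdc5 3, 12 and 6 against 103, 111 and 132. These paralogs are similar enough to share reads, so the division among them is uncertain.

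A run of 6 Schlafen genes, which interferon and myeloid activation can induce, lay at chr11:82974316-83215154 and comprised Slfn9, Slfn8, Slfn2, Slfn1, Slfn4 and Slfn3. Slfn4 stood at 213, 248 and 219.6 CPM in CTT replicates 1 to 3 and 664, 1017 and 589.7 CPM in anti-Ly6G replicates 1 to 3 (log2 fold change 1.74, SE 0.18, adjusted p = 0.000636). Slfn1 stood at 55.6, 62.0 and 59.8 CPM with CTT alone and 122, 188 and 112 CPM with anti-Ly6G (log2 fold change 1.25, SE 0.17, adjusted p = 0.00222). In both, anti-Ly6G replicate 2 was the highest library. Their neighbor Slfn2 rose from 239 ± 14.4 to 354 ± 33.0 CPM, and the smallest change was that of Slfn8 (0.35). The third run, at chr5:136953275-137046108, held Fis1, Cldn15, Znhit1, Plod3 and Ap1s1. Cldn15, a claudin gene, was low and stood at 3.40, 1.70 and 1.34 CPM with CTT alone and 11.1, 7.48 and 6.56 CPM with anti-Ly6G, and the collagen-modifying enzyme gene Plod3 stood at 104, 73.6 and 73.0 CPM with CTT alone and 160.2, 143 and 138 CPM with anti-Ly6G. Calls in these runs ended for Slfn8 without CTT replicate 3 (adjusted p = 0.0554), Slfn3 without CTT replicate 3 or anti-Ly6G replicates 1 or 2 (adjusted p 0.0585 to 0.0717), Fis1 without CTT replicates 1, 2 or 3 or anti-Ly6G replicates 1, 2 or 3 (adjusted p 0.0524 to 0.156) and Ap1s1 without CTT replicates 2 or 3 or anti-Ly6G replicates 1, 2 or 3 (adjusted p 0.0661 to 0.174).

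Most genes of classical monocytes rose. Of the 20 tested, 18 rose and 0 fell, with a median log2 fold change of 0.93 and a summed level of 3534 to 4967 CPM with CTT alone against 7035 to 8518 CPM with anti-Ly6G. Neutrophil precursors also express members such as Hp, Chil3 and Cd177, which stand in the granule list too. Plac8 stood at 379, 356 and 418 CPM with CTT alone and 645, 596 and 610.2 CPM with anti-Ly6G (log2 fold change 0.68, SE 0.07, adjusted p = 0.000656). Ifitm3, which encodes a membrane protein that restricts viral entry, stood at 236, 177 and 192 CPM with CTT alone and 428, 417 and 390.4 CPM with anti-Ly6G (log2 fold change 1.03, SE 0.10, adjusted p = 0.000522). Cx3cr1, the fractalkine receptor of patrolling monocytes, stood at 60.8, 52.7 and 54.6 CPM with CTT alone and 83.2, 86.1 and 86.8 CPM with anti-Ly6G (log2 fold change 0.61, SE 0.07, adjusted p = 0.000905). Each of these genes was higher in all 3 antibody libraries. Nonclassical monocyte genes moved in both directions: 7 of 19 rose and 6 fell (median −0.01). Ace and Ceacam1 were among the risers, at 115 ± 4.37 against 165 ± 1.41 CPM and at 76.3 ± 4.53 against 139 ± 7.60 CPM. Hes1, a Notch target, fell from 37.8 ± 2.54 to 18.9 ± 2.20 CPM (log2 fold change −1.0007, SE 0.10, adjusted p = 0.000585). Nr4a1, which nonclassical monocytes need to develop, stood at 483, 419 and 431 CPM with CTT alone and 357, 354 and 357 CPM with anti-Ly6G (log2 fold change −0.32, SE 0.07, adjusted p = 0.0142). The falling count was 1, 2 and 1 without anti-Ly6G replicate 1, 2 and 3. A call ended for Nr4a1 without anti-Ly6G replicates 1, 2 or 3 (adjusted p 0.0519 to 0.0575).

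Genes of growth factor receptors and lineage factors moved in both directions. Csf1r, the receptor of the macrophage factor M-CSF, stood at 3038, 1947 and 2073 CPM in CTT replicates 1 to 3 and 1638, 1615 and 1524 CPM in anti-Ly6G replicates 1 to 3 (log2 fold change −0.56, SE 0.15, adjusted p = 0.0363). CTT replicate 1 was far above replicates 2 and 3, and all antibody libraries lay below them. In contrast, the shared beta chain of the GM-CSF, IL-3 and IL-5 receptors rose: Csf2rb stood at 272, 264 and 284 CPM with CTT alone and 517, 447 and 449.8 CPM with anti-Ly6G (log2 fold change 0.79, SE 0.07, adjusted p = 0.000381) and its paralog Csf2rb2 at 70.2, 66.9 and 73.3 CPM with CTT alone and 132, 114 and 113 CPM with anti-Ly6G (log2 fold change 0.77, SE 0.08, adjusted p = 0.000515). Among 28 colony-stimulating factor receptors and lineage factors, 7 rose and 5 fell (median 0.12). Spi1, which encodes the myeloid master factor PU.1, rose from 293 ± 11.01 to 437 ± 8.70 CPM (log2 fold change 0.57, adjusted p = 0.000501), and Cebpd from 53.7 ± 4.81 to 93.3 ± 7.85 CPM (log2 fold change 0.80, adjusted p = 0.000728). Cebpb and the granulocytic Cebpe also rose, while the macrophage factor Maf and the helix-loop-helix factor Bhlhe40 fell. Without CTT replicate 3 the list had 2 fallers, and without any single antibody library it had 1. Single calls ended for Csf1r without CTT replicate 3 or anti-Ly6G replicates 1, 2 or 3 (adjusted p 0.0565 to 0.105) and Maf without CTT replicate 3 or anti-Ly6G replicates 1, 2 or 3 (adjusted p 0.088 to 0.111).

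Of 24 heat shock chaperones and cochaperones 9 fell and 2 rose, and Hspa1b and Hspa1a had the 2 largest falls above 10 CPM. Cells make these chaperones when heat shock factor binds repeated GAA units in their promoters, and the inducible HSP70 genes Hspa1a and Hspa1b are the most responsive. The promoters of 4 falling members are shown for this element, again as the 150 bases before the start site on the gene's strand, with matches to GAANNTTC or TTCNNGAA in capitals (each motif reads the same on both strands). Hspa1a lies at chr17:34972157-34972306, minus strand; Hspa1b at chr17:34959239-34959388, minus strand; Hsph1 at chr5:149636337-149636486, minus strand; and Hspb1 at chr5:135887769-135887918, plus strand.
Hspa1a: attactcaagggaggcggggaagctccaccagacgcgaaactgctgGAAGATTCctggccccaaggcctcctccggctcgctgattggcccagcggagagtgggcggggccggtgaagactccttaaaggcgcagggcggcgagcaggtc
Hspa1b: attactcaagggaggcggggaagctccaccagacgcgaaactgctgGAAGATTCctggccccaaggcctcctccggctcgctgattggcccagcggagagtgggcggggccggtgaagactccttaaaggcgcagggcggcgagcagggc
Hsph1: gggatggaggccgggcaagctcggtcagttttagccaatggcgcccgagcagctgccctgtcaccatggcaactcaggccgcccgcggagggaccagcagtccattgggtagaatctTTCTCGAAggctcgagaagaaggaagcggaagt
Hspb1: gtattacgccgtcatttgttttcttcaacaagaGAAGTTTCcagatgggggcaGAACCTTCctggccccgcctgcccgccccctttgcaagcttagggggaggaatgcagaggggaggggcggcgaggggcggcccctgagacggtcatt
The Hspa1a and Hspa1b promoters were identical at 149 of 150 bases, with the match 104 bases before the start. It lay 33 bases before the start in Hsph1 and 117 and 97 before it in Hspb1. Within the 300-base windows, 11 of 20 heat shock list genes held a match to either motif (55.0%). The share was 14.1% over all tested genes, 14.6% over those that rose and 14.5% over those that fell. Some other lists also had high shares. Among these were 6 of 12 MHC class II genes and 7 of 16 classical monocyte genes (43.8%). Efferocytosis and complement C1q genes also held a match in 7 of 16 (43.8%). A high share was thus not particular to the heat shock list, and the part of the element in the falls was not tested.

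Levels of these genes differed widely. Hspa1b (chr17:34956429-34959238) stood at 1714, 1184 and 1275 CPM in CTT replicates 1 to 3 and 204, 147 and 306 CPM in anti-Ly6G replicates 1 to 3, 6.36-fold lower with the antibody (log2 fold change −2.67, SE 0.25, adjusted p = 0.000428). Hspa1a (chr17:34969359-34972156) stood at 1143, 741 and 802 CPM with CTT alone and 141, 99.7 and 192 CPM with anti-Ly6G (log2 fold change −2.63, SE 0.24, adjusted p = 0.000383). The groups were far apart in both, and since their sequences are nearly the same the division of reads between them is uncertain. Hspa1l, next to them on chromosome 17, gave 86, 44 and 73 raw counts with CTT alone and 4, 14 and 12 with anti-Ly6G. Hsph1, an HSP110 nucleotide exchange factor gene, stood at 152, 137 and 119.5 CPM with CTT alone and 59.1, 61.6 and 67.4 CPM with anti-Ly6G (log2 fold change −1.12, SE 0.09, adjusted p = 0.000252). All of these were lower in each antibody library. The HSP40 gene Dnajb1 stood at 218, 200.1 and 178 CPM with CTT alone and 103, 84.0 and 106 CPM with anti-Ly6G (log2 fold change −1.02, SE 0.11, adjusted p = 0.000591). Hspb1, which encodes the small chaperone HSP27, stood at 8.05, 7.03 and 3.85 CPM with CTT alone and 1.79, 0.843 and 1.74 CPM with anti-Ly6G (log2 fold change −2.12, SE 0.36, adjusted p = 0.00594). The other 13 genes of the list were not called and its median was −0.07; leaving out any single library gave 7 to 9 fallers. The constitutive chaperone gene Hspa8 was measured at 1302, 1294 and 1301 CPM with CTT alone and 1477, 1309 and 1491 CPM with anti-Ly6G (log2 fold change 0.13, adjusted p = 0.201). The list's summed level was 6710 to 7624 CPM with CTT alone and 4596 to 5193 CPM with anti-Ly6G. Handling time before lysis is not stated, and its part in this result was not tested.

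Of 20 endoplasmic reticulum stress genes 2 fell and 0 rose (median 0.05), and this share is below the 15.3% called over all genes. They were Atf3, a transcription factor gene, at 120.1, 87.0 and 79.4 CPM with CTT alone and 59.2, 49.1 and 53.8 CPM with anti-Ly6G (log2 fold change −0.82, SE 0.15, adjusted p = 0.00699), and Ppp1r15a, whose product restarts translation after stress, at 346, 379.7 and 366 CPM with CTT alone and 253, 222 and 244 CPM with anti-Ly6G (log2 fold change −0.60, SE 0.07, adjusted p = 0.000968). Ddit3, which encodes the stress factor CHOP, was measured at 20.3 ± 2.53 and 15.2 ± 1.61 CPM (log2 fold change −0.42, adjusted p = 0.055). Of 24 immediate early genes 9 fell and 2 rose (median −0.24), and the falling count was 4 or 5 without CTT replicate 2 or 3 or any single antibody library and 12 without CTT replicate 1. Klf6 stood at 377, 376 and 370.2 CPM with CTT alone and 294, 287 and 283 CPM with anti-Ly6G (log2 fold change −0.38, SE 0.05, adjusted p = 0.00235). The risers were the AP-1 member Fosl2 (95.4 ± 5.17 against 156 ± 13.3 CPM; log2 fold change 0.71, adjusted p = 0.000716) and Ier3 (41.5 ± 2.53 against 56.8 ± 5.44 CPM; log2 fold change 0.45, adjusted p = 0.00972). Fos was chosen after its values were seen. It was measured at 1595, 1621 and 1402 CPM with CTT alone and 1582, 1434 and 1349 CPM with anti-Ly6G. Its log2 fold change was −0.08 (adjusted p = 0.543). The part of tissue dissociation in the changes of this list was not tested. Ptgs2, which encodes the prostaglandin synthase COX-2, fell from 181, 208 and 173 CPM to 41.5, 109 and 75.2 CPM (log2 fold change −1.32, SE 0.28, adjusted p = 0.0149). The antibody libraries were all below the CTT libraries but were widely spread, and the call ended for Ptgs2 without anti-Ly6G replicate 3 (adjusted p = 0.0534).

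Red pulp macrophage genes fell or did not pass the test. Of 21 genes 14 fell and 0 rose, with a median log2 fold change of −0.64. The summed level was 12638 to 20837 CPM with CTT alone and 9721 to 10683 CPM with anti-Ly6G. Mrc1 (chr2:14229414-14332023), which encodes the mannose receptor CD206, stood at 1423, 802 and 868 CPM in CTT replicates 1 to 3 and 535, 545 and 490.1 CPM in anti-Ly6G replicates 1 to 3 (log2 fold change −0.98, SE 0.19, adjusted p = 0.0105). Cd163, the receptor for hemoglobin bound to haptoglobin, stood at 300.1, 192 and 188 CPM with CTT alone and 107, 135 and 102 CPM with anti-Ly6G (log2 fold change −0.98, SE 0.18, adjusted p = 0.00883). Adgre1, which encodes F4/80, stood at 754, 528 and 556 CPM with CTT alone and 357, 411 and 355 CPM with anti-Ly6G (log2 fold change −0.71, SE 0.13, adjusted p = 0.0081). CTT replicate 1 held the highest value of all 3 genes. Vcam1, by which these macrophages are recognized, stood at 3403, 1942 and 2178 CPM with CTT alone and 1526, 1517 and 1339 CPM with anti-Ly6G, and Pecam1, an adhesion molecule also made by endothelium, at 199, 192 and 197 CPM with CTT alone and 122, 130.3 and 145 CPM with anti-Ly6G. Without CTT replicate 1, 15 members fell, so the count was as large without that library. It was 6, 7 and 6 without anti-Ly6G replicate 1, 2 and 3. A call ended for Vcam1 without anti-Ly6G replicates 1, 2 or 3 (adjusted p 0.0672 to 0.0809).

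Iron recycling and clearance genes moved in both directions. In the heme and iron list 5 of 19 fell and 1 rose (median −0.24). Slc40a1, the iron exporter ferroportin, stood at 2136, 1410.3 and 1821 CPM with CTT alone and 1277, 1252 and 1270.0 CPM with anti-Ly6G (log2 fold change −0.50, SE 0.13, adjusted p = 0.0321), and transferrin (Trf) at 1663, 999.96 and 1091 CPM with CTT alone and 717, 715 and 659 CPM with anti-Ly6G (log2 fold change −0.84, SE 0.17, adjusted p = 0.0114). The heme enzyme gene Blvrb fell from 148 ± 28.6 to 99.4 ± 8.98 CPM, whereas Hmox1, which encodes heme oxygenase 1, was measured at 2446, 1544 and 1973 CPM with CTT alone and 1714, 1657 and 1664 CPM with anti-Ly6G (log2 fold change −0.24, adjusted p = 0.271). Of 21 efferocytosis and complement C1q genes, 7 fell and 5 rose (median −0.34). The fallers included the phosphatidylserine receptor gene Timd4 (63.1, 42.4 and 45.8 CPM with CTT alone and 27.0, 29.1 and 29.8 CPM with anti-Ly6G; log2 fold change −0.82, adjusted p = 0.00591), the receptor kinase gene Axl (2306, 1304 and 1418 CPM with CTT alone and 943, 958 and 848 CPM with anti-Ly6G; log2 fold change −0.87, adjusted p = 0.0169) and Stab2 (215 ± 74.1 against 119 ± 12.5 CPM). In Timd4 and Axl all antibody libraries were below all CTT libraries. The risers included complement C3 (328, 237 and 240.5 CPM with CTT alone and 646, 565 and 509 CPM with anti-Ly6G; log2 fold change 1.10, adjusted p = 0.00138) and factor B (Cfb; 0.90). The falling counts of the heme and clearance lists were 2, 3 and 2, and 1, 1 and 1, without anti-Ly6G replicate 1, 2 and 3. Single calls ended for Slc40a1 without CTT replicate 3 or anti-Ly6G replicates 1, 2 or 3 (adjusted p 0.0861 to 0.105), Blvrb without anti-Ly6G replicates 1 or 3 (adjusted p 0.0739 to 0.0742), Stab2 without anti-Ly6G replicates 1, 2 or 3 (adjusted p 0.0566 to 0.0884) and Axl without anti-Ly6G replicates 1, 2 or 3 (adjusted p 0.0537 to 0.0641).

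MHC class II molecules show peptides to CD4+ T cells. Of 16 genes of this presentation 9 fell and 1 rose (median −0.33), and their summed level ran from 17190 to 19016 CPM with CTT alone and from 13735 to 15710 CPM with anti-Ly6G. Cd74, which encodes the invariant chain, stood at 6619, 7189.6 and 7405 CPM in CTT replicates 1 to 3 and 5055, 5282 and 5876 CPM in anti-Ly6G replicates 1 to 3 (log2 fold change −0.39, SE 0.07, adjusted p = 0.00967). The class II chain gene H2-Ab1 stood at 2249.8, 2407 and 2553 CPM with CTT alone and 1812, 1843 and 2103 CPM with anti-Ly6G (log2 fold change −0.32, SE 0.08, adjusted p = 0.0249) and H2-Eb1 at 1949.9, 2087 and 2305 CPM with CTT alone and 1592, 1622 and 1845 CPM with anti-Ly6G (log2 fold change −0.33, SE 0.08, adjusted p = 0.0319). In these genes CTT replicate 1 was the lowest of its group, the reverse of the macrophage genes. Cd83, a maturation gene of dendritic and B cells, stood at 163, 151 and 157 CPM with CTT alone and 87.7, 103 and 117 CPM with anti-Ly6G (log2 fold change −0.61, SE 0.10, adjusted p = 0.00462). The lone riser was the lysosomal thiol reductase gene Ifi30, at 384, 341 and 374 CPM with CTT alone and 503, 454 and 490.1 CPM with anti-Ly6G (log2 fold change 0.40, SE 0.07, adjusted p = 0.00616). B cells carry MHC class II as well, and 4 of 14 B cell markers fell with 0 rising (median −0.48). Their summed level was 4693 to 6753 CPM with CTT alone and 3657 to 4887 CPM with anti-Ly6G (ranges that overlapped), and all 14 fell without CTT replicate 1; the part of B cells in the class II result was not tested. The 9 class II fallers became 4, 2, 1 and 2 without CTT replicate 2 or 3 or anti-Ly6G replicate 1 or 2; 12 fell without CTT replicate 1. Single calls ended for Cd74 without anti-Ly6G replicate 1 (adjusted p = 0.0516), H2-Ab1 without CTT replicates 2 or 3 or anti-Ly6G replicates 1 or 2 (adjusted p 0.0552 to 0.104) and H2-Eb1 without CTT replicates 2 or 3 or anti-Ly6G replicates 1 or 2 (adjusted p 0.0611 to 0.125). With limma on log2(FPKM + 1) the adjusted p was 0.0819 for Cd74, 0.0727 for H2-Ab1 and 0.0667 for H2-Eb1.

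Of 17 costimulatory and dendritic maturation genes 2 fell and 1 rose (median −0.26). The called share, 17.6%, was near the 15.3% over all genes. The falling count was 7 without CTT replicate 1, 1 without CTT replicate 3, 0 without anti-Ly6G replicate 1 and 5 with DESeq2, and no gene rose in any fit with a library left out. Cd86, a ligand of CD28, stood at 234, 182 and 175 CPM with CTT alone and 125, 143 and 133 CPM with anti-Ly6G (log2 fold change −0.56, SE 0.11, adjusted p = 0.0111), and Cd80, the other such ligand, at 25.3, 21.1 and 23.2 CPM with CTT alone and 16.1, 16.9 and 17.0 CPM with anti-Ly6G (log2 fold change −0.48, SE 0.10, adjusted p = 0.0127). Tnfsf14, which encodes the cytokine LIGHT, was the riser (19.4 ± 1.36 against 24.8 ± 1.94 CPM; log2 fold change 0.36, adjusted p = 0.0383). Ccr7, which leads dendritic cells to lymph nodes, was measured at 37.1, 59.3 and 61.4 CPM with CTT alone and 33.8, 31.9 and 39.1 CPM with anti-Ly6G (log2 fold change −0.59, adjusted p = 0.0524), with overlapping groups. Cd274, which encodes PD-L1, was measured at 77.1, 86.0 and 93.0 CPM with CTT alone and 64.6, 74.6 and 75.2 CPM with anti-Ly6G (log2 fold change −0.26, adjusted p = 0.0832). Calls ended for Cd86 without anti-Ly6G replicate 1 (adjusted p = 0.0552), Cd80 without CTT replicate 3 or anti-Ly6G replicate 1 (adjusted p 0.0522 to 0.0549) and Tnfsf14 without CTT replicates 1, 2 or 3 or anti-Ly6G replicates 1, 2 or 3 (adjusted p 0.0589 to 0.126).

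Type I interferon response genes rose or did not pass the test. Interferon alpha and beta act through the factor ISGF3, which binds a pair of GAAA units in promoters and turns on antiviral genes, among them the OAS enzymes that activate RNase L. Promoters of 4 rising members, whose values follow, are shown for this motif (GAAA, any 2 bases, GAAA), as the 150 bases before the start site on the gene's strand, with matches on either strand in capitals. Isg15 lies at chr4:156200819-156200968, minus strand; Ifit1 at chr19:34640739-34640888, plus strand; Oas1g at chr5:120887614-120887763, minus strand; and Oas3 at chr5:120777660-120777809, minus strand.
Isg15: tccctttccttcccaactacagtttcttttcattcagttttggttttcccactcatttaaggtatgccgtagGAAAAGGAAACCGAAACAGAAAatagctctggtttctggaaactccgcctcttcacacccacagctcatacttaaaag
Ifit1: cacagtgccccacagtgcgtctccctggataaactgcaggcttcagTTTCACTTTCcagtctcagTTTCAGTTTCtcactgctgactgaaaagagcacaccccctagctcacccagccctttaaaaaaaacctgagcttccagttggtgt
Oas1g: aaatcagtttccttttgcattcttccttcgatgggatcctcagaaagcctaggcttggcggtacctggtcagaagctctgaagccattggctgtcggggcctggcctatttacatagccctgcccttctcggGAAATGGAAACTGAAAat
Oas3: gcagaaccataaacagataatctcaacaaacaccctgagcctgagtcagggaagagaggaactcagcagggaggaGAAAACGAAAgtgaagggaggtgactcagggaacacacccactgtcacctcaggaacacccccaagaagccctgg
In Isg15 3 matches overlapped, starting 78, 72 and 66 bases before the start; Ifit1 held 2 at 104 and 85, Oas1g 2 overlapping ones at 18 and 12, and Oas3 1 at 75. In the 300-base windows 12 of 21 type I interferon genes held the motif (57.1%), against 3.88% of all tested genes. The interferon-gamma and MHC class I list had the same share, 12 of 21.

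Calls came mostly from the type I list, though the difference between the 2 lists was not tested. Of 28 type I interferon genes 16 rose and 0 fell (median 0.51), and their summed level was 1922 to 2274 CPM with CTT alone and 2442 to 3131 CPM with anti-Ly6G. Of 30 interferon-gamma and MHC class I genes, 2 rose and 0 fell (median 0.01, and −0.04 with upper-quartile scaling), or 4 and 5 without CTT replicate 1. Oas3 stood at 61.4, 62.4 and 62.3 CPM in CTT replicates 1 to 3 and 145, 201 and 140.0 CPM in anti-Ly6G replicates 1 to 3 (log2 fold change 1.38, SE 0.13, adjusted p = 0.000381). Oas2 stood at 81.2, 69.6 and 68.6 CPM with CTT alone and 152, 174 and 126 CPM with anti-Ly6G (log2 fold change 1.04, SE 0.12, adjusted p = 0.000905), and Oas1a, which shares sequence with Oas1g, at 46.2, 37.6 and 39.1 CPM with CTT alone and 75.6, 86.0 and 69.4 CPM with anti-Ly6G (log2 fold change 0.91, SE 0.10, adjusted p = 0.000905). In Oas3 and Oas2, anti-Ly6G replicate 2 was the highest library. The same library stood out for Ifit1, at 9.90, 9.80 and 9.25 CPM with CTT alone and 14.8, 37.7 and 16.1 CPM with anti-Ly6G (log2 fold change 1.25, SE 0.32, adjusted p = 0.0342), and for Isg15, at 26.5, 22.7 and 22.8 CPM with CTT alone and 32.2, 50.9 and 34.3 CPM with anti-Ly6G (log2 fold change 0.71, SE 0.17, adjusted p = 0.0238). Zbp1, a sensor of Z-form nucleic acid, rose from 45.8 ± 5.25 to 79.3 ± 6.45 CPM (log2 fold change 0.79, adjusted p = 0.00117). Cxcl10 was measured at 14.3, 12.3 and 12.8 CPM with CTT alone and 18.3, 19.3 and 14.8 CPM with anti-Ly6G (log2 fold change 0.42, adjusted p = 0.0583). The 2 interferon-gamma risers were the GTPase gene Irgm1 (0.35) and the immunoproteasome gene Psmb10 (0.22). Without CTT replicate 2 or 3, 9 or 8 type I genes rose. Single calls ended for Irgm1 without CTT replicates 2 or 3 or anti-Ly6G replicates 2 or 3 (adjusted p 0.0844 to 0.107), Psmb10 without CTT replicates 2 or 3 or anti-Ly6G replicates 1, 2 or 3 (adjusted p 0.0665 to 0.115), Isg15 without CTT replicates 2 or 3 (adjusted p 0.0708 to 0.095) and Ifit1 without CTT replicates 2 or 3 (adjusted p 0.083 to 0.118). With limma-voom the adjusted p of Ifit1 was 0.0754, and with upper-quartile scaling that of Psmb10 was 0.0692.

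Of 26 genes of inflammatory cytokines and chemokines, 5 rose and 1 fell (23.1% called, against 15.3% of all genes; median −0.12). The oncostatin M gene Osm stood at 95.5, 98.1 and 93.9 CPM with CTT alone and 184, 174 and 154 CPM with anti-Ly6G (log2 fold change 0.83, SE 0.07, adjusted p = 0.000339). Cxcl2, a neutrophil chemokine, stood at 207, 173 and 191 CPM with CTT alone and 349, 410.1 and 302 CPM with anti-Ly6G (log2 fold change 0.90, SE 0.11, adjusted p = 0.00144), and Ccl9 at 87.5, 62.9 and 73.0 CPM with CTT alone and 151, 123 and 135 CPM with anti-Ly6G (log2 fold change 0.87, SE 0.12, adjusted p = 0.00239). All antibody libraries were above all CTT libraries for these 3 genes. Some central cytokine genes did not pass the test. Il1b was measured at 469.5, 573 and 534 CPM in CTT replicates 1 to 3 and 278, 735 and 400.4 CPM in anti-Ly6G replicates 1 to 3 (log2 fold change −0.16, adjusted p = 0.753), and the antibody libraries spanned the CTT range. Tnf was measured at 27.1, 23.8 and 23.4 CPM with CTT alone and 26.9, 21.0 and 22.5 CPM with anti-Ly6G (log2 fold change −0.08, adjusted p = 0.687). Il10 and Il12b were scarce, at 2.56 ± 0.571 against 1.97 ± 0.802 and 1.42 ± 0.724 against 0.984 ± 0.490 CPM, within the spread of the libraries. In the interleukin-1 and inflammasome list 8 of 22 rose and 1 fell (median 0.09), or 4 fell without CTT replicate 2. Mefv, the pyrin gene, rose by 0.67, Casp4, the sensor of cytosolic lipopolysaccharide, by 0.65, Il18rap by 0.61 and the adaptor gene Pycard by 0.51 on the log2 scale. Without CTT replicate 3 the interleukin-1 list had 5 risers, and the cytokine list had 3 without CTT replicate 2 or 3 or anti-Ly6G replicate 1 or 2.

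Genes of receptors for microbes, of attractant receptors and of adhesion molecules gave more risers than fallers. Of 29 pattern recognition genes 15 rose and 2 fell (median 0.32; 8 rose without CTT replicate 3). Clec5a, an activating lectin gene, stood at 16.9, 12.1 and 14.6 CPM with CTT alone and 51.7, 55.4 and 47.2 CPM with anti-Ly6G (log2 fold change 1.82, SE 0.12, adjusted p = 0.000106). Clec4e, which encodes the glycolipid receptor Mincle, stood at 47.3, 47.3 and 47.6 CPM with CTT alone and 95.8, 107 and 84.4 CPM with anti-Ly6G (log2 fold change 1.01, SE 0.09, adjusted p = 0.000269). Trem3 stood at 20.6, 18.5 and 20.7 CPM with CTT alone and 48.0, 49.6 and 35.2 CPM with anti-Ly6G (log2 fold change 1.15, SE 0.13, adjusted p = 0.000905), and the adaptor gene Myd88 rose from 121 ± 2.69 to 187 ± 4.03 CPM (log2 fold change 0.63, adjusted p = 0.000296). In each of these genes the groups were apart. Among 26 chemokine and chemoattractant receptor genes 9 rose and 1 fell (0.30), or 4 fell without CTT replicate 1, 2 without CTT replicate 2 and 0 without any single antibody library. The leukotriene B4 receptor gene Ltb4r1 stood at 27.2, 16.03 and 21.5 CPM with CTT alone and 75.4, 59.4 and 57.4 CPM with anti-Ly6G (log2 fold change 1.57, SE 0.18, adjusted p = 0.000965), and the formyl peptide receptor gene Fpr2 at 40.7, 30.8 and 29.2 CPM with CTT alone and 82.4, 85.8 and 74.0 CPM with anti-Ly6G (log2 fold change 1.27, SE 0.12, adjusted p = 0.000469). Both attractant receptor genes were higher in all antibody libraries. Of 22 adhesion and migration genes 11 rose and 2 fell (0.30). The risers included Itgam, which encodes the CD11b integrin chain (373, 293 and 309 CPM with CTT alone and 709, 674 and 581 CPM with anti-Ly6G; log2 fold change 1.01, adjusted p = 0.000636), and the fibronectin receptor gene Itga5 (28.6, 27.2 and 26.6 CPM with CTT alone and 54.9, 50.1 and 50.2 CPM with anti-Ly6G; log2 fold change 0.92, adjusted p = 0.000169). The adhesion list had 7 risers without CTT replicate 3 and 6 and 7 without anti-Ly6G replicate 1 and 2.

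Genes tied to suppressive myeloid cells moved in both directions, and acute phase genes rose. Of 24 suppressive myeloid genes 11 rose and 2 fell (median 0.39), the falling count being 0 without anti-Ly6G replicate 3 and 1 without CTT replicate 3 or anti-Ly6G replicate 1. The enzymes that compete for arginine moved apart: Nos2 rose, as described above, while Arg1, which encodes arginase 1, stood at 13.2, 6.94 and 7.82 CPM in CTT replicates 1 to 3 and 3.10, 5.45 and 2.90 CPM in anti-Ly6G replicates 1 to 3 (log2 fold change −1.28, SE 0.31, adjusted p = 0.0272). Both were scarce transcripts. Wfdc17 stood at 55.7, 55.1 and 67.1 CPM with CTT alone and 172, 184 and 157 CPM with anti-Ly6G (log2 fold change 1.53, SE 0.09, adjusted p = 8.39e-05), and the inhibitory receptor gene Lilrb4a rose from 257 ± 5.30 to 391 ± 24.8 CPM (log2 fold change 0.60, adjusted p = 0.000636). In the list of acute phase genes and STAT3 targets, which shares Hp with the granule and classical monocyte lists, 13 of 18 rose and 0 fell (0.58). Lrg1 stood at 78.5, 75.2 and 74.4 CPM with CTT alone and 289.7, 281 and 233 CPM with anti-Ly6G (log2 fold change 1.82, SE 0.09, adjusted p = 3.78e-05), and the iron-binding lipocalin gene Lcn2 at 324, 193 and 174 CPM with CTT alone and 1071, 859 and 729.8 CPM with anti-Ly6G (log2 fold change 1.95, SE 0.23, adjusted p = 0.00112). The NF-kB cofactor Bcl3 rose from 65.4 ± 6.50 to 100.2 ± 4.52 CPM (log2 fold change 0.62, adjusted p = 0.00183). A call ended for Arg1 without CTT replicate 3 or anti-Ly6G replicates 1 or 3 (adjusted p 0.0564 to 0.104).

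Genes of glucose use rose. Of 27 glycolysis and hypoxia genes 20 rose and 1 fell (median 0.48), and 16 to 20 rose when any single library was left out. Slc16a3, the lactate exporter, stood at 60.4, 59.8 and 67.3 CPM with CTT alone and 151, 139 and 123 CPM with anti-Ly6G (log2 fold change 1.14, SE 0.09, adjusted p = 0.000166). Pkm, pyruvate kinase, stood at 681, 628 and 645 CPM with CTT alone and 1241, 1076 and 1065 CPM with anti-Ly6G (log2 fold change 0.79, SE 0.07, adjusted p = 0.000411). Eno1 rose from 387 ± 18.3 to 603 ± 25.9 CPM and Pgk1 from 158 ± 3.80 to 257 ± 27.1 CPM. Of 24 NADPH oxidase and NRF2 target genes 14 rose and 0 fell (0.39), 10 to 18 with a library left out. Phagocytes spend NADPH from the pentose phosphate pathway on the oxidative burst. The pathway enzyme gene Pgd stood at 243, 211 and 219.9 CPM with CTT alone and 459, 441 and 386 CPM with anti-Ly6G (log2 fold change 0.93, SE 0.08, adjusted p = 0.000341), the glutathione reductase gene Gsr at 276, 247 and 261 CPM with CTT alone and 512, 539 and 441 CPM with anti-Ly6G (log2 fold change 0.93, SE 0.08, adjusted p = 0.000341), and the oxidase subunit gene Ncf1 at 311, 308 and 328 CPM with CTT alone and 498, 519 and 462 CPM with anti-Ly6G (log2 fold change 0.64, SE 0.06, adjusted p = 0.000515). In the mitochondria, 5 of 31 oxidative phosphorylation genes rose and 0 fell (0.15), a count that was 0, 0, 0, 1 and 1 without CTT replicate 2 or 3 or anti-Ly6G replicate 1, 2 or 3. It was 1 with upper-quartile scaling, and the called share with TMM scaling, 16.1%, was near the 15.3% over all genes. Cholesterol and fatty acid synthesis (3 of 25 rose, 0 fell; −0.03), and lysosomal genes (2 of 25 rose, 2 fell; −0.07), with Cd63 rising (18.9 ± 2.18 against 36.0 ± 4.32 CPM), were near the background of all genes. Without CTT replicate 1, 2 cholesterol genes rose and 3 fell, and 5 lysosomal genes rose; 1 gene of each list rose when any other single library was left out.

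Cell cycle genes rose or did not pass the test, with changes under 2-fold in those named. Of 30 tested 17 rose and 0 fell (median 0.39), and 10 and 11 rose without CTT replicate 3 and anti-Ly6G replicate 1. Aurka, a mitotic kinase gene, stood at 22.8, 22.1 and 22.4 CPM with CTT alone and 39.2, 33.0 and 33.1 CPM with anti-Ly6G (log2 fold change 0.65, SE 0.09, adjusted p = 0.00223). The cyclin genes rose too, Ccnb1 standing at 41.1, 35.6 and 36.3 CPM with CTT alone and 67.1, 58.3 and 54.2 CPM with anti-Ly6G (log2 fold change 0.67, SE 0.10, adjusted p = 0.00262). Ccna2 stood at 84.2, 76.4 and 71.5 CPM with CTT alone and 125, 113 and 114 CPM with anti-Ly6G (log2 fold change 0.60, SE 0.08, adjusted p = 0.00149). Top2a rose from 270.1 ± 14.6 to 367 ± 21.5 CPM (log2 fold change 0.44, adjusted p = 0.00353). Mki67, the proliferation marker Ki-67, was measured at 512, 546 and 436 CPM with CTT alone and 657, 626 and 566 CPM with anti-Ly6G (log2 fold change 0.31, adjusted p = 0.0561). Of 36 ribosomal protein genes 0 passed the threshold in edgeR (median −0.09). At an unadjusted p under 0.05 there were 2, both lower, limma-voom called 0, and DESeq2 and upper-quartile scaling each called 1 lower. Rpl30 had the smallest p (log2 fold change −0.18, adjusted p = 0.0832).

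Matrix and coagulation genes gave 1 of the largest falls beside many rises. Of 26 genes 11 rose and 1 fell (median 0.56), among them Vcan, Mmp8, Mmp9 and Mmp25, whose values are given above, and the factor X gene F10 (29.2, 16.1 and 17.7 CPM with CTT alone and 96.1, 73.4 and 68.0 CPM with anti-Ly6G; log2 fold change 1.92, adjusted p = 0.000968). The faller was the collagen XIV gene Col14a1 (chr15:55307644-55520803), at 249, 140.2 and 134 CPM in CTT replicates 1 to 3 and 47.2, 72.1 and 56.6 CPM in anti-Ly6G replicates 1 to 3 (log2 fold change −1.57, SE 0.24, adjusted p = 0.00376). It was the third largest fall above 10 CPM after Hspa1b and Hspa1a. Col3a1, the collagen III gene of fibroblasts, fell with it (12.5, 6.63 and 9.19 CPM with CTT alone and 3.64, 4.16 and 4.64 CPM with anti-Ly6G), and of 13 stromal and endothelial markers 3 fell (1 without anti-Ly6G replicate 1) and 1 rose. Their summed level was 387 to 550 CPM with CTT alone and 267 to 296 CPM with anti-Ly6G. Most of this level came from Stab2 and Pecam1, which are given above with the clearance and red pulp macrophage genes. Col3a1 made up little of it. The remaining large falls were Hpn (log2 fold change −1.27), a membrane protease gene, Sned1 (−1.18), Tpbgl (−1.18), Lrrn3 (−1.09), the axon guidance gene Slit1 (−1.08), Ciart (−1.08), a repressor of the circadian clock, Dlc1 (−1.05), Tppp (−1.05), the linker histone gene H1f10 (−1.04) and Adamdec1 (−1.02), a protease gene of macrophages. Sned1 stood at 53.6, 31.8 and 31.7 CPM with CTT alone and 15.4, 20.1 and 16.1 CPM with anti-Ly6G. Ciart stood at 10.99, 11.7 and 10.8 CPM with CTT alone and 5.52, 4.64 and 5.66 CPM with anti-Ly6G. Adamdec1 stood at 139, 96.2 and 115 CPM with CTT alone and 54.7, 54.6 and 62.6 CPM with anti-Ly6G. The rule that chose these genes required groups without overlap. Single calls ended for Tpbgl without CTT replicate 3 or anti-Ly6G replicates 1 or 3 (adjusted p 0.0606 to 0.0996), Lrrn3 without anti-Ly6G replicates 1, 2 or 3 (adjusted p 0.0718 to 0.104), Slit1 without CTT replicate 2 or anti-Ly6G replicates 1, 2 or 3 (adjusted p 0.0549 to 0.106), Dlc1 without CTT replicate 3 or anti-Ly6G replicates 1 or 3 (adjusted p 0.0508 to 0.0681), Tppp without anti-Ly6G replicates 1, 2 or 3 (adjusted p 0.0605 to 0.0735), H1f10 without CTT replicates 2 or 3 or anti-Ly6G replicate 3 (adjusted p 0.0647 to 0.0803) and Col3a1 without anti-Ly6G replicate 1 (adjusted p = 0.0547).

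**Figure D3:**
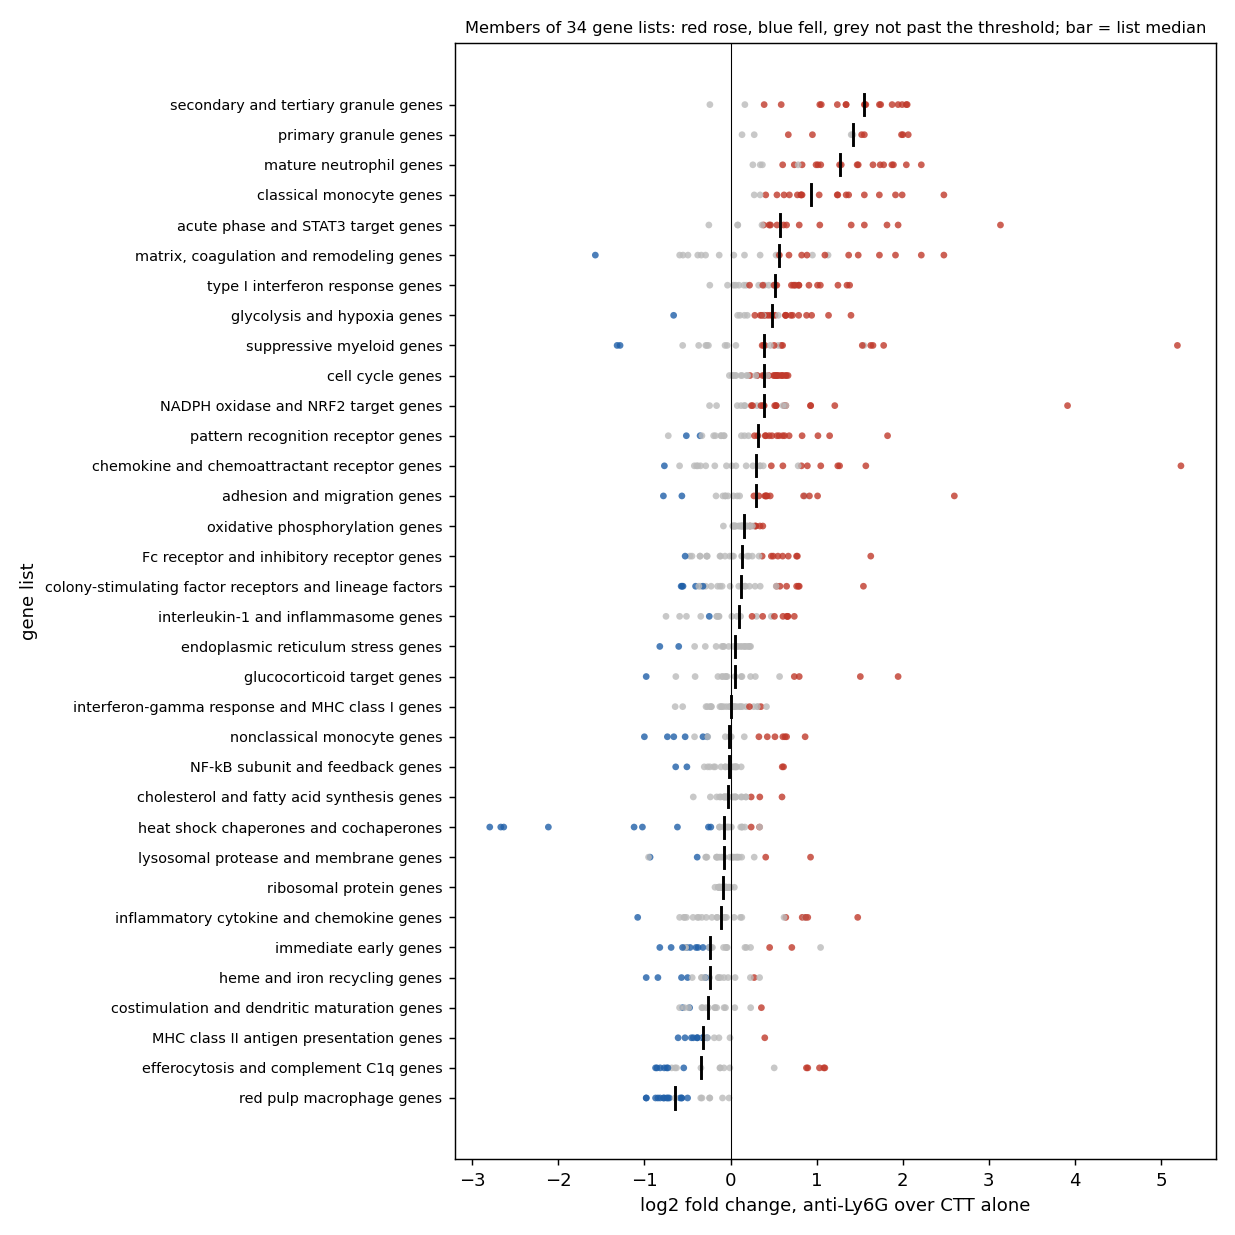
Log2 fold change (horizontal axis, anti-Ly6G over CTT alone) of each tested member of 34 gene lists (vertical axis, ordered by list median); red points rose, blue points fell, grey points did not pass the threshold, and the black bar is the list median. Secondary and tertiary granule genes have the highest median (1.55) and red pulp macrophage genes the lowest (−0.64).

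Transcript levels per length give the order among abundant genes. In length- and depth-scaled fragment levels (FPKM, deposited by the authors), Cd74 led the 10 most abundant called genes with CTT alone at 5049.8 ± 345 (SD, n = 3), followed by S100a9 at 2886 ± 393 and S100a8 at 2465 ± 397. The fall of Cd74 was not called in all fits and ended for Cd74 without anti-Ly6G replicate 1 (adjusted p = 0.0516). With anti-Ly6G, S100a9 was highest at 8904 ± 1123 and S100a8 next at 8288 ± 1135, within their spread of each other, and Cd74 (3781 ± 326) and Lyz2 (3640.0 ± 173) followed, also within their spread. Lyz2, the lysozyme gene of myeloid cells, had stood at 1787 ± 417 FPKM with CTT alone.

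Markers of other spleen cells were read in every library, and none of the listed markers in the table was at 0 in all 6. T cell markers summed to 129 to 157 CPM with CTT alone and 140 to 154 CPM with anti-Ly6G (4 of 14 rose, 1 fell), and plasma cell markers to 2374 to 5150 and 2075 to 4235 CPM (0 of 10 called by edgeR, at an unadjusted p under 0.05, or by DESeq2 or limma-voom). Erythroid markers summed to 1444 to 2314 and 828 to 1386 CPM, ranges that did not overlap. Of 16, 3 fell and 0 rose (median −0.52). This share, 18.8%, was near the 15.3% called over all genes in either direction and above the 5.12% that fell. Conventional dendritic cell 1 markers summed to 2104 to 2190 and 1830 to 1981 CPM, with 2 of 11 falling (1 without CTT replicate 3 or any single antibody library) and 1 rising. Eosinophil markers summed to 388 to 615 and 302 to 314 CPM, and most of each sum was Ccr3. Of 10 such markers 1 was called (10%, against 15.3% over all genes), and this was a fall of Ccr3. Ccr3 stood at 435, 251 and 268 CPM with CTT alone and 191, 189 and 181 CPM with anti-Ly6G. Basophil and mast cell markers summed to 216 to 220 and 300 to 339 CPM. Of these 1 of 11 rose (9.09%, against 15.3% called over all genes), and the list median was −0.10. The riser was the histamine enzyme gene Hdc, which stands in the mature neutrophil list as well. Hdc stood at 96.3, 116 and 99.7 CPM with CTT alone and 195, 245 and 180.3 CPM with anti-Ly6G. Its mean went from 104 to 207 CPM and that of the sum from 218 to 313 CPM, so the higher sum came from Hdc. The part of these cells in the results was not tested. With DESeq2, 12 B cell markers fell in place of 4. The erythroid count was 1, 1 and 0 without anti-Ly6G replicate 1, 2 and 3, and the count of rising T cell markers 0, 1, 0 and 0 without CTT replicate 2 or 3 or anti-Ly6G replicate 2 or 3. A call ended for Ccr3 without anti-Ly6G replicates 1, 2 or 3 (adjusted p 0.0757 to 0.0807).

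**Figure D4:**
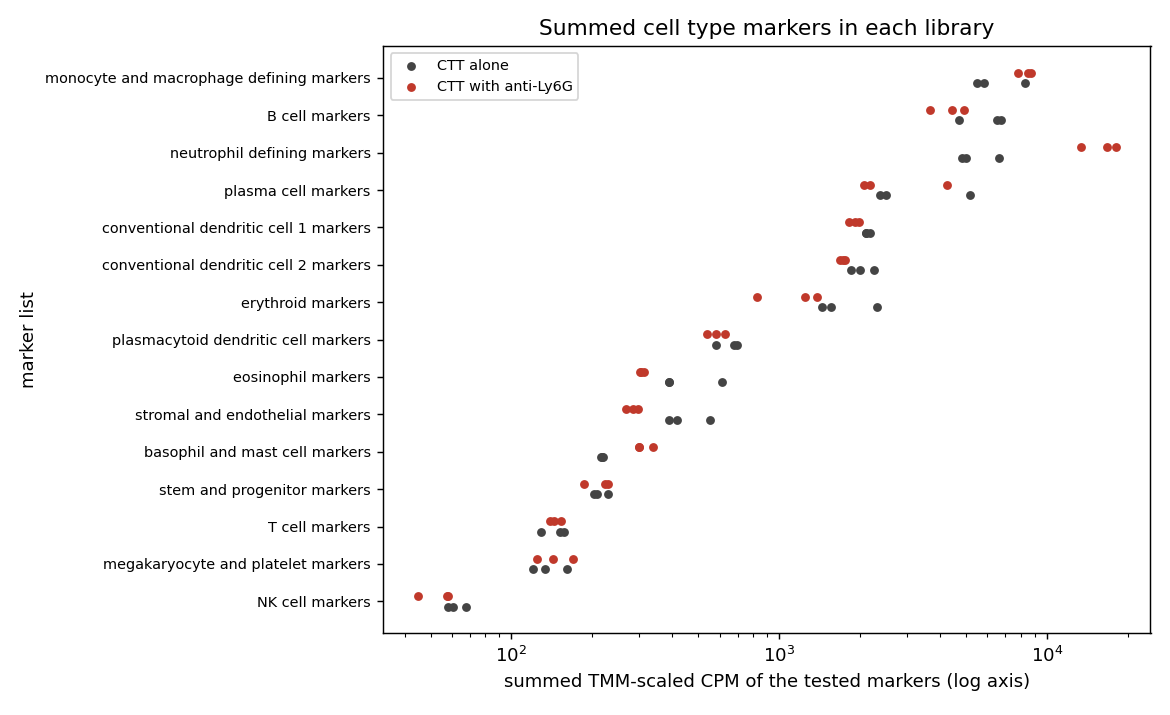
Summed TMM-scaled CPM (horizontal axis, log scale) of 15 cell type marker lists (vertical axis) in each library; grey points are CTT alone and red points CTT with anti-Ly6G. The neutrophil defining markers lie far to the right with anti-Ly6G (13354 to 18057 against 4817 to 6646 CPM), while B cell and plasma cell sums overlap between the groups.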

How the data were processed

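RNA was read from 6 libraries of CCR2-captured spleen cells labeled as monocytes. The deposited table gives read counts per gene and FPKM values side by side; per the submitters' processing notes, HISAT2, HTSeq and the mm10 build were used, and per the labels' protocols total RNA was extracted with TRIzol and libraries were made with a VAHTS kit. The sources used here give no versions, annotation or strand setting, so antisense and overlapping genes cannot be told apart; the number of columns left out for want of a sample was 0. The counts, as the authors deposited them, were scaled by TMM, filtered with filterByExpr and tested with edgeR's quasi-likelihood test (R 4.3.3, edgeR 4.0.16, limma 3.58.1, DESeq2 1.42.0), with p-values adjusted by Benjamini-Hochberg over 13294 genes at a threshold of 0.05. SE is the log2 fold change divided by the square root of F. The FPKM values made by the authors served for levels per length and for limma with pseudocounts of 1 and 0.1.

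Alternatives were other scalings, filters and tests, a replicate block, and each library left out. The chi-square per degree of freedom between libraries of a group was at least 13.1, so none was a repeat. On simulated counts for 13165 genes of this comparison, 164 genes were called and 10 of them wrongly. Far fewer genes were changed in the simulation than were called in the data. Positions and promoters are RefSeq's (GRCm38.p6), for 16849 and 10613 genes. Members and lists were chosen with earlier results of these data known. Lists share members, such as Hp, Lcn2, Cebpd, Mmp8 and Mmp9, so their counts are not independent of each other. Named genes are the 15 largest rises and falls of protein-coding genes (mean of at least 10 CPM, groups apart), the 4 members of each of 34 lists with the smallest p, the 10 most abundant called genes, up to 5 non-coding genes, the 3 longest runs and 24 preset genes. Some genes that this rule names are not reported here.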

Additional observations from a re-analysis of the deposited data

How the results depend on the processing

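No gene called with TMM scaling changed its direction under any alternative tried. The 1354 rises were 259 with a 2-fold minimum and 706 to 1687 with 1 library left out, and between 1069 and 1566 otherwise. The 681 falls were 1030 with upper-quartile scaling, 1204 with DESeq2, 62 with the 2-fold minimum and 177 to 1168 with 1 library left out; the cause was not tested, beyond the smaller number of samples and the stricter rule. Of the 2035 calls, 1750 were kept with upper-quartile scaling, 2033 with DESeq2, 1957 with limma-voom, 2013 with a minimum of 1 CPM in 3 libraries, 1607 with limma on log2(FPKM + 0.1), and 929 (without anti-Ly6G replicate 1) to 1877 (without CTT replicate 1) with a library left out. Over all lists, the 227 rises were 69 with the 2-fold minimum and 152 to 267 with a library left out, and the 79 falls were 119 with DESeq2, 12 with the 2-fold minimum and 30 to 129 with a library left out. Of the 185 genes named, 170 were called, and 99 of these lost the call in at least 1 alternative, or 36 when the 2-fold minimum is set aside. With all libraries and no such minimum 13 did: Fis1, Ap1s1, Gm5637, Psmb10 and Tnfsf14 with other scalings (adjusted p 0.0533 to 0.104), Ifit1 and Slit1 with limma-voom (0.0754 and 0.0622), and Cd74, H2-Ab1, H2-Eb1, Csf1r, Maf and Lrrn3 with limma on log2(FPKM + 1) (0.0506 to 0.0819). Il1b, which was not called, turned to 0.11 without anti-Ly6G replicate 1 and ran from −0.63 to 0.11 over all libraries left out.

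A fit with a replicate block gave 1551 rises and 1043 falls, 1969 of the 2035 calls among them, and 134 list genes fell. The deviations of same-numbered libraries from their group means correlated at r = 0.0651, −0.0267 and 0.0868 across genes. For differently numbered libraries of the 2 groups r ran from −0.104 to 0.0347. So few values cannot settle whether the numbers pair the libraries, and the labels name nothing that a number shares. Each left-out fit has 2 libraries in 1 group. In simulated counts 61.5% of 65 genes changed 1.5-fold, 73.9% of 69 changed 2-fold and 95.5% of 66 changed 4-fold were recovered. Far fewer genes were changed there than were called here, and the adjusted p depends on that share. These rates therefore do not measure recovery in these data, and what limits the calls was not tested.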

Other observations

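Further lists describe receptors and regulators that the report does not cover. Of 29 Fc receptor and inhibitory receptor genes 9 rose and 1 fell (median log2 fold change 0.13); 2 fell without CTT replicate 1, and 0 without CTT replicate 3 or any single antibody library. Cd33, a sialic acid binding receptor gene, stood at 59.9, 65.4 and 69.9 CPM with CTT alone and 105, 123 and 104 CPM with anti-Ly6G (log2 fold change 0.77, SE 0.09, adjusted p = 0.000857), and Cd300lb at 61.4, 58.3 and 56.9 CPM with CTT alone and 88.4, 110.0 and 82.6 CPM with anti-Ly6G (log2 fold change 0.67, SE 0.10, adjusted p = 0.00355). Pirb, the paired inhibitory receptor gene, rose from 358 ± 17.1 to 496 ± 30.8 CPM (log2 fold change 0.47, adjusted p = 0.00263). All 3 antibody libraries were above all CTT libraries for these genes.

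Regulators of inflammation moved in both directions. Of 21 NF-kB subunit and feedback genes 2 rose and 2 fell (median −0.02), or 5 fell without CTT replicate 1. The called share, 19%, was near the 15.3% over all genes. The fallers were Nfkbid, at 136, 135 and 148 CPM with CTT alone and 84.8, 87.8 and 96.9 CPM with anti-Ly6G (log2 fold change −0.64, SE 0.07, adjusted p = 0.000825), and Tnfaip3, which encodes the ubiquitin-editing enzyme A20, at 229, 183 and 198 CPM with CTT alone and 155, 131 and 143 CPM with anti-Ly6G (log2 fold change −0.51, SE 0.10, adjusted p = 0.00921). Besides Bcl3, the kinase gene Ikbke rose (33.4 ± 2.18 against 50.6 ± 2.84 CPM). Of 19 glucocorticoid target genes 4 rose and 1 fell (0.05), or 2 fell without CTT replicate 2; Anxa1, which encodes the anti-inflammatory protein annexin A1, stood at 223, 158 and 159.7 CPM with CTT alone and 578, 509 and 448 CPM with anti-Ly6G (log2 fold change 1.51, SE 0.14, adjusted p = 0.000438), and the decoy receptor gene Il1r2 rose from 22.1 ± 1.85 to 36.9 ± 6.43 CPM (log2 fold change 0.74, adjusted p = 0.00663). Of the non-coding genes, the pseudogenes Gm12854 and Gm5637 rose; Gm12854 stood at 7.40, 5.83 and 5.75 CPM with CTT alone and 14.3, 15.3 and 13.4 CPM with anti-Ly6G (log2 fold change 1.18, adjusted p = 0.00107). The change of Gm5637 was small (log2 fold change 0.39, adjusted p = 0.0473), and the call ended for Gm5637 without CTT replicates 2 or 3 or anti-Ly6G replicates 1, 2 or 3 (adjusted p 0.095 to 0.163).

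Single calls stood in some marker lists: 1 of 12 stem and progenitor markers and 1 of 13 megakaryocyte and platelet markers rose, and 1 of 11 NK cell markers fell. These shares, 7.69% to 9.09%, were below the 15.3% called over all genes. Without CTT replicate 1 the stem and progenitor count was 3 and the megakaryocyte count 4, and both were 0 without any other single library; the NK cell count was 0 without CTT replicate 3 or any single antibody library. EdgeR called 0 of 11 conventional dendritic cell 2 markers and 0 of 11 plasmacytoid dendritic cell markers. At an unadjusted p under 0.05 there were 2 and 3, and DESeq2 called 2 and 0. Without CTT replicate 1, 3 conventional dendritic cell 2 markers fell, and 2 plasmacytoid markers rose and 3 fell.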
